A study of Mus musculus with 24 samples.

Results

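The 8 livers of mice with acute pancreatitis (AP) in a mouse liver RNA-seq study fell into a pair of sets of 4. In AP 11, 12, 13 and 16 the RNA of Nop9 was between 76.5 and 111 TPM (transcript abundance scaled by length and library), and in AP 15, 17, 18 and 19 it was between 5.88 and 27.4 TPM. They are called here the Nop9-high and the Nop9-low livers. The members were chosen by the measured TPM of these livers, with Nop9, Fyb and Psmd13 as markers, and the labels give no reason for them. For that reason every difference between the sets is a description and carries no test. The 8 AP livers were 8 of 24 libraries, the others being 8 controls (Con) and 8 livers of mice with severe acute pancreatitis (SAP). All mice were wild type Balb/c of 6 weeks of age, and how pancreatitis was induced is not given in the sources used here.

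Nop9 is a nucleolar RNA-binding protein needed for the processing of small-subunit ribosomal RNA, Fyb is an adaptor protein best known in T cells, platelets and myeloid cells, and Psmd13 is a non-ATPase subunit of the proteasome's regulatory particle. Interferon-stimulated genes, a list described below, are switched on by interferon-activated transcription factors that bind an element with the repeated letters GAAA in the promoters of these genes. Their products block viral RNA and protein synthesis (the Ifit and Oas proteins), guard against intracellular pathogens (the guanylate-binding and immunity-related GTPases) or limit the response (Usp18).

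A gene was called set-separating where all 4 livers of one set lay above all 4 of the other and the set means differed by at least 1 on the log2(TPM + 1) scale. The rule found 142 genes among 10555 with a mean of at least 1 TPM. Members of gene lists that reached this mean are called measured below. Of these, 82 were lower in the Nop9-low livers, 0.777% of the genes, and 60 were higher, 0.568%. Without the size limit, 460 genes (4.36%) were lower in all 4 Nop9-low livers and 1109 (10.5%) were higher. Just inside the size limit lay Ccdc24, with a difference of -1.008, and Cdc37, with 1.010. Just outside it lay Thsd7b, with -0.998, and Galk1, with 0.996. At the expression limit, Pde7b had a mean of 1 TPM and was kept, and Lacc1 had 0.999 TPM and was left out. The median difference over all genes was 0.08, with quartiles of -0.10 and 0.27.

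The promoters of genes lower in the Nop9-low livers are shown because the letters GAAANNGAAA, the core of the element above, were frequent in them. The windows are the 250 bases before the start of transcription, 5′ to 3′ on the gene's own strand, from RefSeq on GRCm38.p6. Capitals mark matches to GAAANNGAAA on either strand (TTTCNNTTTC when it lies on the other strand) and to TTCNNNGAA, a further set of letters searched, which read the same on both strands.
Ifit1, chr19:34640639-34640888, plus strand: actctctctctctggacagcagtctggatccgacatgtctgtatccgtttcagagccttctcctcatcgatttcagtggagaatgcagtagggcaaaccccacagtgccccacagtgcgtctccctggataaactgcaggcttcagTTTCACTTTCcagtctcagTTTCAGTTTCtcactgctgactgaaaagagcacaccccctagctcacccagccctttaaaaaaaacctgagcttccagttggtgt
Ifit3, chr19:34583279-34583528, plus strand: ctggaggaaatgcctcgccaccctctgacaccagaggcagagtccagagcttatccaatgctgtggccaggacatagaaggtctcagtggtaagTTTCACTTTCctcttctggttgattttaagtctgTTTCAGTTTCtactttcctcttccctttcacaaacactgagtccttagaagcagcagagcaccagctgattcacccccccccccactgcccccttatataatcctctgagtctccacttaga
Igtp, chr11:58199306-58199555, plus strand: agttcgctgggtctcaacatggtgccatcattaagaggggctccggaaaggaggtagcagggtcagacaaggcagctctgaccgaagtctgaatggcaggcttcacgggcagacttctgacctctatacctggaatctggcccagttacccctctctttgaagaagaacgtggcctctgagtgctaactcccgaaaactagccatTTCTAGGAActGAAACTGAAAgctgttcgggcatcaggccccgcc
Gbp7, chr3:142530086-142530335, plus strand: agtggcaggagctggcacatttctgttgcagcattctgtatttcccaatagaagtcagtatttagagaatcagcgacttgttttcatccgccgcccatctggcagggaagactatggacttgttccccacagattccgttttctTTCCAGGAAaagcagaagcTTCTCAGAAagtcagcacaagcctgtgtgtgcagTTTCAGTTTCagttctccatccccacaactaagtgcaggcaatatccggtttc
Cxcl10, chr5:92348890-92349139, minus strand: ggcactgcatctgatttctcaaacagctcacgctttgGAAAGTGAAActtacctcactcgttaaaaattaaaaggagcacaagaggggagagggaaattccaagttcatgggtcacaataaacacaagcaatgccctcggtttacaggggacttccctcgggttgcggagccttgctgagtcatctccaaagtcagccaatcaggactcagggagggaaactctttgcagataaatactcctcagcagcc
Nop9, chr14:55745443-55745692, plus strand: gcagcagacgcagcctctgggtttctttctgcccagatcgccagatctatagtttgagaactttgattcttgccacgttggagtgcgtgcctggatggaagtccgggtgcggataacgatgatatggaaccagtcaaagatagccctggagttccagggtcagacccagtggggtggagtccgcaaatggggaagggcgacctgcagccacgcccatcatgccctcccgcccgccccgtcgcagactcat

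In the Ifit1 window 2 matches to GAAANNGAAA began 104 and 85 bases before the start, and in the Ifit3 window 2 began 156 and 122 bases before it. Igtp held one match 34 bases before its start, beside a match to TTCNNNGAA, Gbp7 held one at 53 bases, and Cxcl10 one at 213 bases. The Nop9 window held neither set of letters, nor did those of Fyb and Psmd13. Promoters were found for 51 of the 82 lower genes, and 19 of these genes (37.3%) held GAAANNGAAA. The share was 5.41% among the higher genes (2 of 37), 3.37% among all genes tested (264 of 7825) and 3.46% among all 27025 genes of the promoter table. TTCNNNGAA was held by 25.5% of the lower genes, 8.11% of the higher genes and 7.16% of the genes tested. In the list of interferon-stimulated genes 16 of 25 genes with a promoter (64%) held GAAANNGAAA. A match is a description of the letters, not a binding site or a cause.

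AP 18 stood apart from the other AP livers. Of 32 interferon-stimulated genes measured, 29 were lower in AP 18 than in any of the other libraries. Its median log2(TPM + 1) over the list was 1.47, against 3.95 to 5.83 in the other 7 AP livers. Irf7, the transcription factor that amplifies interferon production, was 8.44 TPM in AP 18 and 303 to 478 TPM in the other AP livers. Isg15, the ubiquitin-like modifier that is among the most abundant interferon-induced transcripts, was 27.5 TPM in AP 18 and 700 to 3320 TPM in the others. AP 18 was thus the lowest of the Nop9-low livers for interferon-stimulated genes, while for Nop9 and Fyb it was the highest of them. The list of interferon-stimulated genes and the set differences of its genes named below are therefore given with and without it, while the promoter shares above rest on genes chosen with it.

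The mitochondrial share and the share of the most abundant genes moved with the sets. The mitochondrial share of TPM was 11.5 to 13.7% in the Nop9-high livers and 7.81 to 10.3% in the Nop9-low livers, against 12.5 to 22.2% in controls and 2.8 to 6.26% in SAP livers. The top 50 genes held 53.3 to 55.8% of TPM in the Nop9-high and 50.8 to 52.96% in the Nop9-low livers. Genes above 0 TPM numbered 17603 to 17854 and 17341 to 17726, ranges that overlapped. Depth is unknown, since TPM keeps no counts. The part of these properties in the results below was not tested. Albumin RNA reached 21293 TPM in AP livers, and 16 of 17 markers of exocrine pancreas had a mean under 1 TPM over the 24 libraries.

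Nop9 was high in controls and low in SAP livers, and the AP livers lay at both levels. In the Nop9-high livers it was 94.7, 103, 111 and 76.5 TPM in AP 11, 12, 13 and 16, and in the Nop9-low livers it was 6.39, 6.13, 27.4 and 5.88 TPM in AP 15, 17, 18 and 19. The 8 controls ranged from 56.1 to 354 TPM with a median of 188, and the 8 SAP livers from 4.29 to 7.55 TPM with a median of 6.18. The Nop9-high livers thus lay within the range of the controls, and the Nop9-low livers lay below every control, 3 of the 4 within the SAP range. The set means were 96.2 ± 14.7 and 11.5 ± 10.6 TPM (SD, n = 4 each), a difference of -3.26 on the log2(TPM + 1) scale, and -3.76 without AP 18. Between SAP livers and controls, which the choice of sets did not use, Nop9 fell by 4.61 on the log2(TPM + 1) scale (limma adjusted p = 5.45e-08). The spread in this and the other limma tests was estimated over all 24 libraries, the AP livers included. Over all 8 AP livers against controls it fell by 2.48, a mean over both levels. No test is given for this fall, since the choice of sets used the AP livers.

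Fyb had the same order of groups. It was 30.7, 57.2, 44.8 and 38.6 TPM in the Nop9-high livers and 0.68, 1.7, 18.6 and 5.87 TPM in the Nop9-low livers. Controls ranged from 45.7 to 101 TPM and SAP livers from 0.2 to 0.95 TPM, so these groups did not overlap. The Nop9-low livers lay below every control, and so did AP 11, 13 and 16 of the Nop9-high livers. AP 15 alone lay within the SAP range. Set means were 42.8 ± 11.2 and 6.72 ± 8.24 TPM (SD, n = 4 each). Fyb fell by 5.25 in SAP livers against controls (limma adjusted p = 3.45e-09) and by 2.07 in AP livers, both on the log2(TPM + 1) scale. The fall in AP livers is given with no test, as for Nop9. Markers of the T cells that Fyb is known from were near 0. Only 3 of 21 markers of T, B and NK cells reached a mean of 1 TPM (Fyb, Igkc and Ighm). The CD3 chain genes Cd3d, Cd3e and Cd3g did not exceed 1.08, 0.64 and 1.04 TPM in any of the 24 libraries. The T cell receptor gene Trbc2 did not exceed 1.98 TPM, Cd4 0.93 TPM and Cd8a 0.09 TPM. The immunoglobulin genes Igkc and Ighm reached 39.3 and 12.1 TPM in AP livers. The summed list was 65.1 to 94.2 TPM in the Nop9-high and 21 to 42.8 TPM in the Nop9-low livers, and Fyb is one of its members.

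Psmd13 went the other way. It was 6.37, 5.97, 5.53 and 5.84 TPM in the Nop9-high livers and 16.4, 12.6, 11.5 and 18.7 TPM in the Nop9-low livers. Controls ranged from 2.01 to 7.36 TPM and SAP livers from 22.3 to 52.2 TPM. The Nop9-low livers therefore lay between controls and SAP livers and overlapped neither. Set means were 5.93 ± 0.348 and 14.8 ± 3.34 TPM (SD, n = 4 each), a difference of 1.17. Psmd13 rose by 2.8 in SAP livers (limma adjusted p = 4.77e-10) and by 1.06 in AP livers against controls, the latter given with no test. It was the only set-separating member of the proteasome list, in which 9 of 39 measured members were higher in all 4 Nop9-low livers (against 10.5% of all genes), 0 were lower and the median difference was 0.12. Without AP 18, 18 of the 39 were higher without overlap, against 24.2% of all genes, and the median was 0.26. The immunoproteasome subunits Psmb9 and Psmb10, which interferon induces, were lower on average, by -0.99 and -0.86, and by -0.49 and -0.44 without AP 18, with sets that overlapped. The third such subunit, Psmb8, differed by -0.34, and by 0.26 without AP 18.

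**Figure D1:**
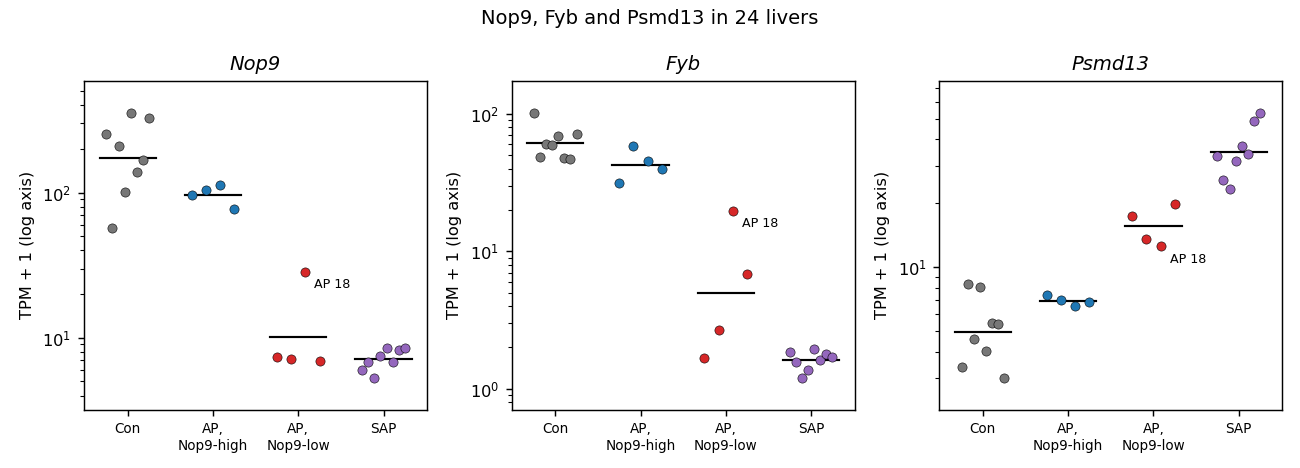
Nop9, Fyb and Psmd13 in 8 controls, 4 Nop9-high AP, 4 Nop9-low AP and 8 SAP livers; each point is one liver, the y axis is TPM + 1 on a log axis and the bar is the mean on that scale. The Nop9-high livers lie at or near the control range for all 3 genes, and the Nop9-low livers lie toward the SAP livers, with AP 18 the least so for Nop9 and Fyb.

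All 3 markers share positions with other genes, and how reads from the shared parts were counted is not stated. Exons of Nop9 overlap those of Cideb, a lipid droplet protein, on the opposite strand over 614 bases. Cideb was 220 ± 25 TPM in the Nop9-high and 290 ± 37.9 TPM in the Nop9-low livers (SD, n = 4 each), the other direction from Nop9, but in SAP livers Cideb fell as Nop9 did, by 0.87 (limma adjusted p = 4.28e-05). Psmd13 overlaps Sirt3, a mitochondrial deacetylase, on the opposite strand over 329 bases. Sirt3 averaged 32.2 TPM in the Nop9-high and 39.0 TPM in the Nop9-low livers and fell in SAP livers by 1.51 (limma adjusted p = 6.79e-12), where Psmd13 rose. Fyb overlaps the predicted gene Gm7666 on the same strand, which averaged 51.8 and 42.4 TPM in the sets and fell with Fyb in SAP livers, by 4.14 (limma adjusted p = 4.03e-09).

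Across the 8 controls, which the choice of sets did not use, Nop9 and Psmd13 varied in opposite order. Pearson's r on the log2(TPM + 1) scale was -0.93 (exact permutation test, two-sided, p = 0.000992, Benjamini-Hochberg adjusted over 6 relations p = 0.00461) and Spearman's rho was -0.93 (exact permutation p = 0.00223, adjusted p = 0.0134). Without the 2 controls farthest from the median in Nop9, r was -0.98 (exact permutation adjusted p = 0.00833). The mitochondrial share went with Nop9, with r = 0.90 (exact permutation p = 0.00154, adjusted p = 0.00461; rho = 0.90, p = 0.00456, adjusted p = 0.0137), but without the 2 farthest controls r was 0.83 and the exact permutation adjusted p was 0.1, so the call rests on them. That share was 12.5 to 16.0% in 5 controls and 19.8 to 22.2% in Con 1, 7 and 10. With Psmd13 the mitochondrial share had r = -0.88 (exact permutation p = 0.00518, adjusted p = 0.0104; rho = -0.83, p = 0.0154, adjusted p = 0.0308). Without the 2 farthest r was -0.90 (exact permutation adjusted p = 0.0333), and without Con 10 alone it was -0.83 (exact permutation adjusted p = 0.0516). The 3 relations with Fyb missed the threshold. They were r = 0.62 with Nop9 (exact permutation p = 0.0998, adjusted p = 0.0998), -0.69 with Psmd13 (p = 0.0561, adjusted p = 0.0673) and 0.69 with the mitochondrial share (p = 0.0553, adjusted p = 0.0673). Their rho values were 0.69 (exact permutation p = 0.0694, adjusted p = 0.0833), -0.76 (p = 0.0368, adjusted p = 0.0551) and 0.55 (p = 0.171, adjusted p = 0.171), and without the 2 farthest controls r was 0.60, -0.73 and 0.80.

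Interferon-stimulated genes were lower in the Nop9-low livers as a list. Of 35 members 32 were measured, and 31 of these had a lower mean in the Nop9-low livers. In 12 all 4 Nop9-low livers lay below all 4 Nop9-high livers (37.5%, against 4.36% of all genes), and 11 of the 12 separated the sets by at least 1 log2. The median difference was -1.44, with a range of -3.93 to 0.19, against 0.08 for all genes. Without AP 18 the median was -0.86 and 28 of 32 members had a lower mean. Without AP 16, the Nop9-high liver nearest to the other set, 22 lay below without overlap (68.8%, against 6.19% of all genes then) and the median was -1.58.

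Ifit1, which binds viral RNA that lacks host cap methylation, was 94, 212, 156 and 20.5 TPM in the Nop9-high livers and 10.3, 5.67, 0.52 and 10.1 TPM in the Nop9-low livers. The sets did not overlap, with AP 16 the Nop9-high liver nearest to the other set. Controls spread over both levels, from 6.35 to 188 TPM, and SAP livers from 1.85 to 8.96 TPM. Set means were 121 and 6.65 TPM, a difference of -3.93, and -3.27 without AP 18. Ifit1 fell by 3.05 in SAP livers against controls (limma adjusted p = 0.00246).

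Ifit3, a partner of Ifit1, was 324, 417, 276 and 54.9 TPM in the Nop9-high livers and 48.9, 36.5, 1.82 and 47.8 TPM in the Nop9-low livers. The sets came nearest between AP 16 and AP 15, and the difference was -3.25, or -2.25 without AP 18. Its difference in SAP livers was -1.70 (limma adjusted p = 0.0833), which missed the threshold. Of its sequence, 51.2% of windows of 50 bases occur in other transcripts, mostly of Ifit3b, so its level is uncertain. Ifit1bl1, a paralog of Ifit1, was 25.1, 35.4, 34.3 and 5.85 TPM in the Nop9-high livers and 0.38, 0, 0 and 0.33 TPM in the Nop9-low livers, below every control, a difference of -4.23 (-4.16 without AP 18). It fell by 2.92 in SAP livers (limma adjusted p = 0.00253).

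Usp18, the protease that removes Isg15 and dampens receptor signalling, was 124, 132, 104 and 38.7 TPM in the Nop9-high livers and 38.5, 25.9, 1.74 and 31.6 TPM in the Nop9-low livers. AP 16 and AP 15 were all but equal in it. Cmpk2, a mitochondrial nucleotide kinase, averaged 11.9 and 1.23 TPM, and Mx1, a dynamin-like antiviral GTPase, 9.22 and 1.12 TPM. Without AP 18 the differences went from -2.38 to -1.49 for Usp18, from -2.24 to -1.96 for Cmpk2 and from -2.16 to -1.88 for Mx1. In SAP livers against controls the differences of Usp18 (0.14, limma adjusted p = 0.839), Cmpk2 (-0.10, limma adjusted p = 0.9) and Mx1 (0.80, limma adjusted p = 0.376) missed the threshold. SAP livers were themselves uneven: Mx1 was 44.6 to 99.6 TPM in SAP 21, 22, 24 and 25 and 0.98 to 2.83 TPM in SAP 26, 27, 28 and 29.

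Several immunity-related GTPases, which attack the vacuoles of intracellular pathogens, were lower in the Nop9-low livers. Igtp was 300, 281, 211 and 182 TPM in the Nop9-high livers and 105, 87.7, 17.4 and 114 TPM in the Nop9-low livers, and it fell by 2.08 in SAP livers (limma adjusted p = 0.000159). Iigp1 was 168, 242, 160 and 181 TPM against 53.5, 43.6, 16.1 and 74.7 TPM, with a difference of -0.68 in SAP livers that missed the threshold (limma adjusted p = 0.158). Irgm1 averaged 81.0 and 34.1 TPM, Irgm2 28.8 and 14.7 TPM and the guanylate-binding protein Gbp7 6.32 and 1.80 TPM. The sets did not overlap in these 5 genes, and AP 16 was the lowest Nop9-high liver for Igtp, Irgm1, Irgm2 and Gbp7. Exons of Igtp and Irgm2 overlap on the same strand over 162 bases, so the levels of these genes are uncertain. Without AP 18 the differences were -1.22 for Igtp, -1.71 for Iigp1, -0.90 for Irgm1, -0.70 for Irgm2 and -1.18 for Gbp7. Ifi47, of the same family, did not separate the sets, with a difference of -0.75, and -0.12 without AP 18. Tgtp1, a further GTPase, averaged 65.2 and 16.2 TPM, but 91.4% of its sequence windows occur elsewhere, mainly in Tgtp2, so its level is uncertain. Its difference was -2.51, and -1.69 without AP 18.

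Some interferon-stimulated genes were low in AP 18 alone. Irf7 was 304 to 478 TPM in the Nop9-high livers and 303, 347 and 378 TPM in AP 15, 17 and 19, with AP 18 alone low. Bst2, which tethers budding virus to the cell surface, was 567 to 807 TPM in the Nop9-high livers and 957, 878 and 1010 TPM in AP 15, 17 and 19, against 129 TPM in AP 18. Stat2 was 19.9 to 24.4 TPM in the Nop9-high livers and 18.1 to 22.2 TPM in those 3 livers. These 3 genes were named after their values were seen. Without AP 18 the sets overlapped or were reversed in them.

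**Figure D2:**
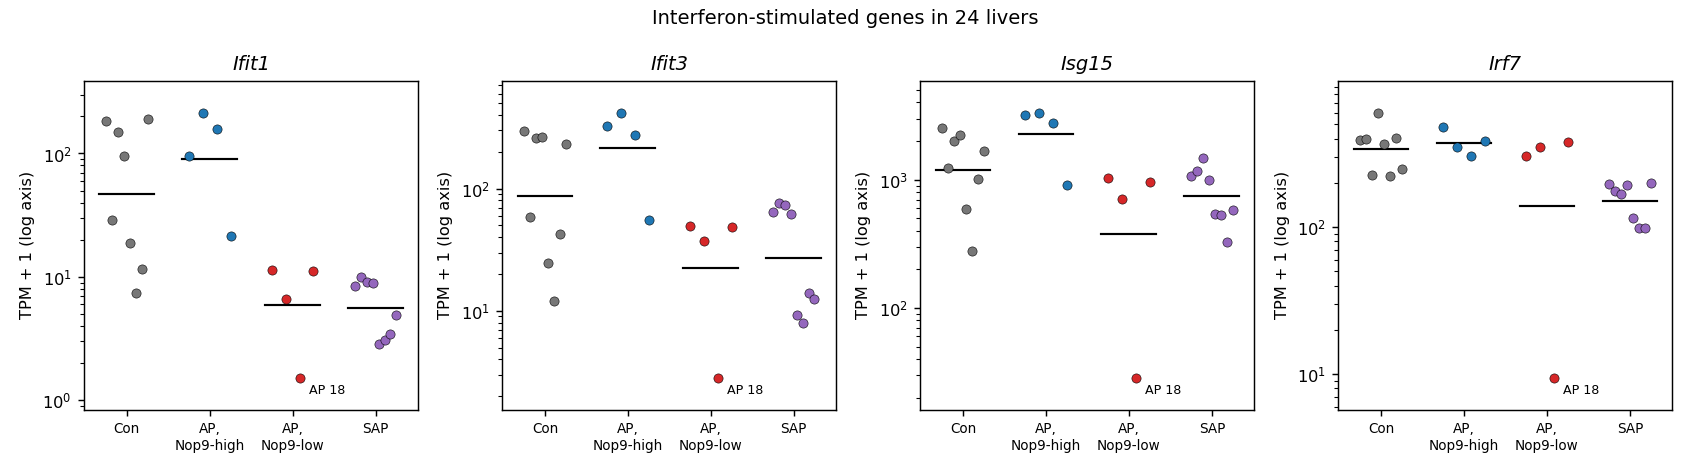
Ifit1, Ifit3, Isg15 and Irf7 in 24 livers, plotted as TPM + 1 on a log axis with 1 point a liver and the mean on that scale as a bar. AP 18 is the lowest point in all 4 panels, and for Irf7 the other 3 Nop9-low livers lie at the level of the Nop9-high livers and of the controls.

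Over the list, 12 of 32 members fell and 4 rose in SAP livers against controls, where 29.8% and 44.2% of all genes did, with a median difference of -0.59. In AP livers against controls 1 member fell, Oas2, and 0 rose by limma (1.13% and 4.35% of all genes). The control livers did not share a level of these genes: Ifit1 was 94.6 to 188 TPM in Con 1, 5, 6 and 10 and 6.35 to 28.1 TPM in Con 3, 7, 8 and 9. Nop9 had another order in controls, highest in Con 7, 10 and 1.

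Cxcl10, the chemokine that draws CXCR3-bearing lymphocytes and is induced by interferon-gamma, was 8.71, 33.5, 19.2 and 3.45 TPM in the Nop9-high livers and 1.38, 2.26, 0.53 and 2.84 TPM in the Nop9-low livers. It was lower in the Nop9-low livers but rose in SAP livers by 1.67 (limma adjusted p = 0.0336). That call was lost when libraries were centred on their medians (1.40, limma adjusted p = 0.0888) and after quantile normalization (1.44, limma adjusted p = 0.0823). The call was lost too with no filter (1.67, limma adjusted p = 0.0718) and without any one of Con 7, 8 and 9 or SAP 21, 22, 24 and 25. Among cytokines, chemokines and NF-kB feedback genes, 26 of 26 measured members rose in SAP livers (44.2% of all genes did). Between the AP sets 5 were lower (19.2%, against 4.36% of all genes) and 1 higher (3.85%, against 10.5%) without overlap, with a median of -0.36. The one higher was Ccl9, a chemokine of myeloid cells, with 9.07, 6.47, 11.9 and 6.82 TPM in the Nop9-high and 32.5, 22.9, 12.4 and 29.3 TPM in the Nop9-low livers. Ccl9 rose in SAP livers by 1.45 (limma adjusted p = 0.000189).

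Outside the lists, the lower genes held other interferon-induced genes, named after their values were seen. Trex1, a nuclease that degrades cytosolic DNA, averaged 56.6 TPM in the Nop9-high and 14.2 TPM in the Nop9-low livers. Ifi203, a sensor of the HIN family, averaged 37.9 and 10.3 TPM, and Tap1, the peptide transporter of antigen presentation, 18.3 and 8.56 TPM. Exons of Trex1 overlap those of Atrip over 996 bases and exons of Ifi203 those of Mndal over 37, on the same strand. Tap1 overlaps Psmb9 on the opposite strand over 212 bases, so the levels of Trex1, Ifi203 and Tap1 are uncertain. Ifi203 fell in SAP livers by 2.94 (limma adjusted p = 7.07e-07), and the differences of Trex1 (0.84, limma adjusted p = 0.159) and Tap1 (0.42, limma adjusted p = 0.366) missed the threshold. Fgf21, the fasting and stress hormone made by hepatocytes and the one set-separating member of the fatty acid oxidation list, was 31.5, 5.53, 9.72 and 11.7 TPM in the Nop9-high livers and 2.8, 3.28, 3.24 and 1.76 TPM in the Nop9-low livers. Controls averaged 2.03 TPM and the Nop9-low livers 2.77 TPM, and SAP livers 28.1 TPM, a rise of 3.26 (limma adjusted p = 3.93e-07).

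The largest set difference was that of n-R5s134, a 5S ribosomal RNA gene, at 221, 78.3, 142 and 310 TPM in the Nop9-high livers and listed at 0 in all 4 Nop9-low livers. It was also listed at 0 in some controls and SAP livers, with ranges of 0 to 237 and 0 to 180 TPM, and all of its sequence windows occur in other transcripts, so it is uncertain. Rpl17-ps3, a pseudogene of a ribosomal protein gene with 81.5% of its windows shared, averaged 45.1 and 5.48 TPM. Depp1, a FOXO target linked to autophagy, was 56, 93.7, 66.9 and 62 TPM against 12.6, 9.16, 44.1 and 11.9 TPM. AP 18 was the highest of the Nop9-low livers in Depp1, as in Nop9 and Fyb. Cyp2c69, a cytochrome P450 with 54.8% of its windows shared, averaged 15.9 TPM in the Nop9-high, 2.68 TPM in the Nop9-low, 52.4 TPM in the control and 0.436 TPM in the SAP livers, and fell by 5.02 in the last (limma adjusted p = 2.05e-10).

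The named genes higher in the Nop9-low livers included enzymes and secreted proteins of hepatocytes. Hsd3b3, a hydroxysteroid dehydrogenase, was 9.02, 8.72, 6.1 and 13 TPM in the Nop9-high livers and 36.8, 31.1, 19.6 and 41.1 TPM in the Nop9-low livers, above every control. SAP livers went the other way, at 0.26 to 1.78 TPM, and Hsd3b3 fell there by 2.85 (limma adjusted p = 9.87e-09). Sord, sorbitol dehydrogenase, had the same pattern, at 48.4, 45.5, 37.7 and 45.4 TPM against 104, 112, 74 and 125 TPM, and fell by 1.83 in SAP livers (limma adjusted p = 2.21e-06). Sord shares 31.3% of its windows with other transcripts and Hsd3b3 overlaps Zfp697, so both levels are uncertain.

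Ces1d, a carboxylesterase that hydrolyses triglycerides, was 24.8, 38.3, 29.5 and 65.7 TPM in the Nop9-high livers and 76.7, 114, 146 and 115 TPM in the Nop9-low livers. Ces2e, of the same family, was 32.8, 37.5, 36.8 and 35 TPM against 112, 78.8, 93.1 and 60.3 TPM. Both rose in SAP livers, by 1.97 (limma adjusted p = 2.07e-05) and 1.08 (limma adjusted p = 0.00347). Fbp1, the gluconeogenic fructose bisphosphatase, averaged 161 ± 10.3 and 326 ± 20.2 TPM (SD, n = 4 each) and rose by 2.30 in SAP livers (limma adjusted p = 4.41e-09). Gnmt, the methyltransferase that consumes S-adenosylmethionine, averaged 103 and 233 TPM and rose by 1.88 (limma adjusted p = 1.51e-06). Cox5a, a nuclear subunit of cytochrome oxidase, averaged 71.8 and 156 TPM and rose by 1.87 (limma adjusted p = 2.55e-07). Cyp2c29, at 42.8 and 103 TPM, and the water channel Aqp1, at 5.64 and 13.4 TPM, missed the threshold in SAP livers, with differences of 0.27 (limma adjusted p = 0.597) and 0.66 (limma adjusted p = 0.0506). Gsta3, a glutathione transferase, averaged 256 and 532 TPM in the sets and fell in SAP livers by 0.94 (limma adjusted p = 0.00627).

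Several of the higher genes cannot be measured apart from relatives or from genes whose exons overlap theirs. Eno1b, nearly a copy of the glycolytic enolase Eno1 (84.5% of windows shared), averaged 34.2 and 85.6 TPM. Serpina1d, an antitrypsin (50.9% shared), averaged 129 and 297 TPM. Afmid, kynurenine formamidase (64% shared, most with the overlapping genes Gm20708 and Tk1), averaged 10.7 and 30.4 TPM. The Ugt1a genes, glucuronosyltransferases for bilirubin and drugs, share their last exons and differ in the first. Ugt1a1 was 28.5, 23.9, 17 and 21.9 TPM in the Nop9-high and 55.8, 67.3, 47.9 and 72.8 TPM in the Nop9-low livers, and Ugt1a6a and Ugt1a9 were higher without overlap too. Ugt1a8, of the same locus, averaged 7.7 TPM in the Nop9-high and 3.65 TPM in the Nop9-low livers, and Ugt1a2 2.87 and 0.59 TPM. Ugt1a1 rose in SAP livers by 1.80 (limma adjusted p = 3.05e-06), and Ugt1a8 fell by 2.87 (limma adjusted p = 7.83e-12).

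**Figure D3:**
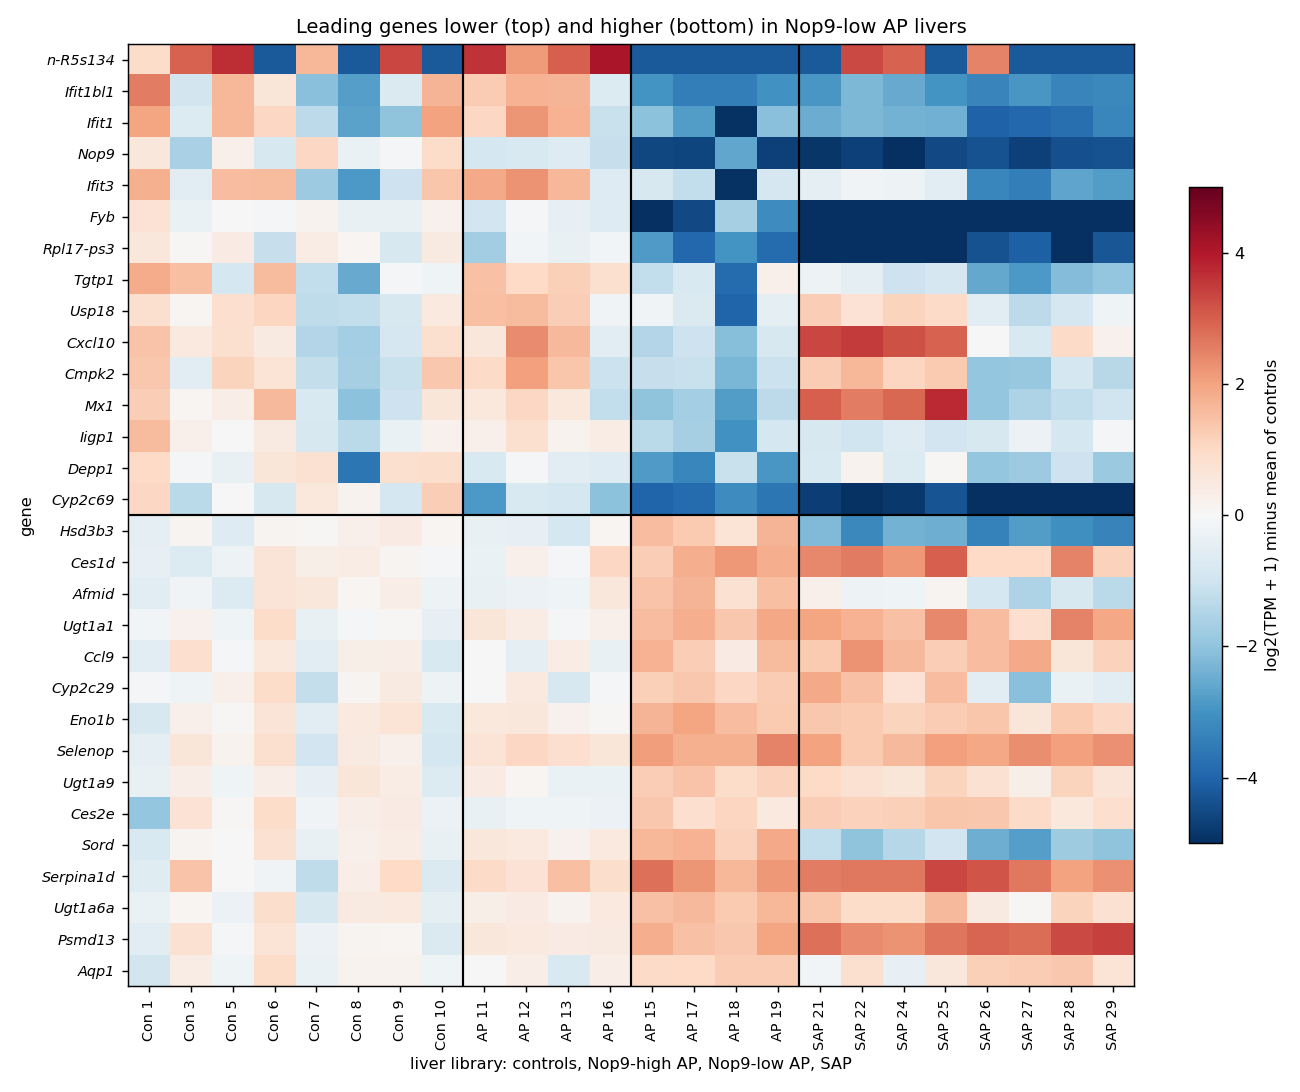
The 15 leading genes lower and the 15 leading genes higher in Nop9-low livers, in 24 libraries; colour is log2(TPM + 1) minus the mean of the 8 controls, and black lines part controls, Nop9-high, Nop9-low and SAP livers. AP 18 is palest of the Nop9-low livers for Nop9, Fyb and Depp1 and darkest for Ifit1, Ifit3 and Usp18, and Hsd3b3 and Sord are red in Nop9-low but blue in SAP livers.

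A pair of overlapping genes differed in opposite directions in each comparison. Selenop, the selenium transport protein of plasma, was 333, 414, 370 and 308 TPM in the Nop9-high livers and 869, 706, 695 and 1136 TPM in the Nop9-low livers. Ccdc152, which shares 439 bases with it on the opposite strand, was 441, 695, 783 and 686 TPM in the Nop9-high and 266, 298, 392 and 173 TPM in the Nop9-low livers. In SAP livers against controls Selenop rose by 1.95 (limma adjusted p = 9.6e-07) and Ccdc152 fell by 6.78 (limma adjusted p = 1.84e-16), from 563 to 4.46 TPM on average. Among set-separating genes, 21.7% of the higher and 19.5% of the lower ones share exon positions with another tested gene on the same strand, against 3.7% of all genes tested. On the opposite strand the shares were 20% and 11%, against 15.1%. Opposite-strand partners moved the other way between the AP sets for 5 of 12 higher (41.7%) and 3 of 9 lower genes (33.3%). The share was 43.6% for all tested genes with such a partner. Pseudogenes made up 20% of the higher and 13.4% of the lower genes, against 3.33% of the genes tested. An example, named after its values were seen, is Gm44805, which overlaps the apolipoprotein genes Apoc2 and Apoc4 on the same strand. It averaged 852 TPM in the Nop9-high and 261 TPM in the Nop9-low livers, while Apoc2 (439 and 471 TPM) and Apoc4 (5030 and 4980 TPM) differed little. The part of read assignment between such genes in these differences was not tested.

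The genes of the 2 sets of AP livers were compared with SAP livers and controls, 16 libraries that the choice of sets did not use. The limma spread came from all 24 libraries, however, and set-separating genes vary widely among AP livers by the way they were chosen. Their calls are therefore not free of the AP livers. With the 2 groups alone, the calls over all genes were 4546 higher and 3050 lower. The expression limit did use them, so a weakly expressed gene could pass it through high values in SAP livers. Gm21972, one of the higher genes, averaged 0.265 TPM in Nop9-high, 3.32 TPM in Nop9-low, 0.0412 TPM in control and 3.01 TPM in SAP livers. Of the 60 genes higher in Nop9-low livers 38 rose in SAP livers (63.3%, against 44.2% of all genes) and 9 fell (15%, against 29.8%), with a median difference of 1.13. Of the 82 lower genes 45 fell (54.9%, against 29.8% of all genes) and 9 rose (11%, against 44.2%), with a median of -1.16. The median over all genes was 0.21. Centring each library on its median moved the latter to -0.06 and the calls over all genes from 4661 higher and 3147 lower to 3888 and 4300. After quantile normalization the genes higher in both Nop9-low and SAP livers went from 38 to 22, given with no share. Without AP 18 the separating genes numbered 106 higher, of which 73 rose in SAP livers, and 77 lower. Without AP 16 they numbered 139 lower, of which 60 fell and 23 rose in SAP livers. Across all 10555 genes the set difference and the SAP difference had Pearson's r = 0.22, and r = 0.17 without the set-separating genes, as a description over genes, which are not independent replicates.

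**Figure D4:**
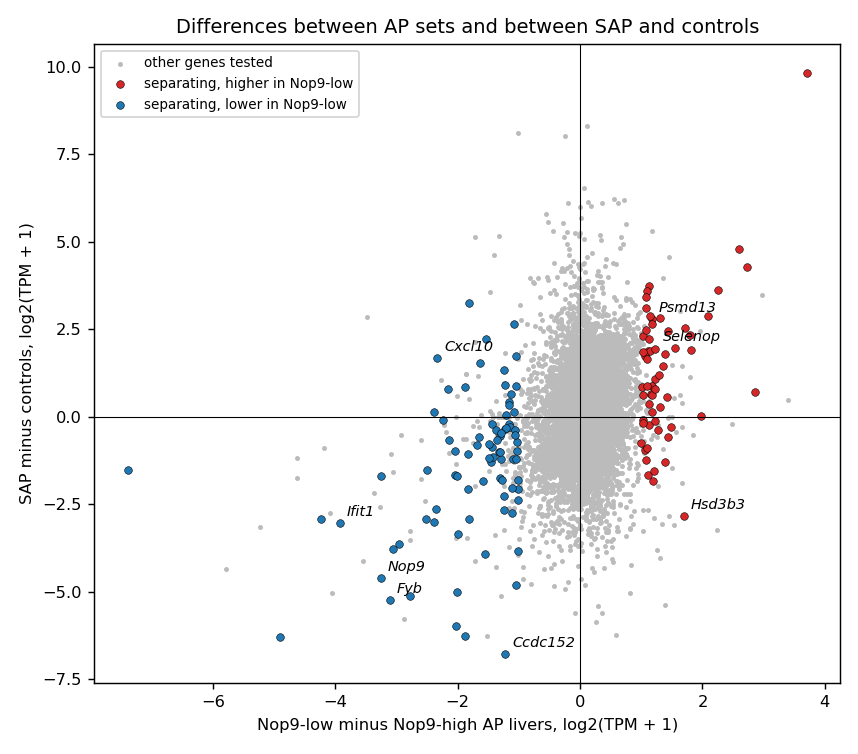
Each point is one of 10555 genes, with the difference between Nop9-low and Nop9-high AP livers on the x axis and between SAP livers and controls on the y axis, both in log2(TPM + 1); red and blue points separate the sets. Most red points lie above 0 on the y axis and most blue points below it, with Hsd3b3 and Cxcl10 among the exceptions.

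More genes lay beyond all controls in the Nop9-low than in the Nop9-high livers. In 749 genes (7.10%) all 4 Nop9-low livers lay above all 8 controls, and in 226 (2.14%) below them. For the Nop9-high livers the numbers were 99 (0.938%) and 35 (0.332%). Over all 8 AP livers limma called 459 genes higher than in controls (4.35%) and 119 lower (1.13%), among them 21 of the 60 and 8 of the 82. The choice of sets used the AP livers, so the 21 and the 8 are a description. The counts over all genes moved with single libraries, to 135 higher without Con 7 and 715 without Con 3, and to 273 higher and 67 lower without AP 18. With the 50 most abundant genes removed before scaling they were 194 higher and 215 lower.

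Mitochondrial transcripts were lower in the Nop9-low livers. Of 15 measured 6 lay below without overlap (40%, against 4.36% of all genes) and 1 above, with a median of -0.39. The ribosomal RNAs of the mitochondrion led them. mt-Rnr1 was 3375, 1992, 2697 and 1766 TPM in the Nop9-high and 601, 889, 742 and 1506 TPM in the Nop9-low livers, and mt-Rnr2 averaged 936 ± 180 and 336 ± 93.6 TPM (SD, n = 4 each). Both fell in SAP livers, by 1.15 (limma adjusted p = 0.00837) and 1.18 (limma adjusted p = 0.00335). Nuclear genes of the respiratory chain went the other way: 23 of 73 lay above without overlap (31.5%, against 10.5% of all genes) and 2 below, with a median of 0.22. In SAP livers 12 of 15 mitochondrial transcripts fell and 0 rose, and of the 73 nuclear genes 36 fell and 21 rose, where 29.8% of all genes fell and 44.2% rose.

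Lists of hepatocyte metabolism had small positive medians. For the urea cycle and amino acid catabolism 29 of 30 members had a higher mean in the Nop9-low livers, 6 without overlap (20%, against 10.5% of all genes), and the median was 0.30. Medians were 0.37 for gluconeogenesis and glycogen (7 of 22 above without overlap, 31.8%, and 1 below), 0.36 for cytochromes P450 (7 of 36 above, 19.4%, and 2 below) and 0.28 for fatty acid oxidation (9 of 39 above, 23.1%, and 2 below). Below without overlap lay 4.36% of all genes. In SAP livers 18 of the 30 genes of the urea cycle list and 24 of the 36 cytochromes fell, while 29 of the 39 fatty acid oxidation genes rose, against 29.8% of all genes that fell and 44.2% that rose. Ribosome biogenesis, the process Nop9 serves, had a median of 0.10, with 6 of 38 members above and 3 below, and no other member of it separated the sets. Ribosomal protein genes had a median of 0.08, with 16 of 79 above (20.3%) and 11 below (13.9%). Counts above without overlap were larger without AP 18, when 24.2% of all genes lay above: 11 for the urea cycle list, 12 for cytochromes P450, 10 each for gluconeogenesis and for fatty acid oxidation and 13 for ribosome biogenesis.

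Of acute-phase proteins 28 of 31 rose in SAP livers, where 44.2% of all genes did. Between the AP sets 3 of them lay above (9.68%) and 1 below (3.23%) without overlap, near the 10.5% and 4.36% of all genes, with a median of -0.04. Immediate-early genes (22 of 23 rose in SAP livers) had 0 members without overlap and a median of -0.13. Genes of the unfolded protein response (29 of 33 rose) had 3 above (9.09%) and 0 below, with a median of 0.23, and 8 above without AP 18 (24.2%, the share of all genes then). In cholesterol synthesis 17 of 25 fell in SAP livers (29.8% of all genes did) and 0 members parted the sets.

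Markers of other liver cells gave no separating gene but Fyb. Of Kupffer cell markers 9 of 10 had a higher mean in the Nop9-low livers, with 0 without overlap and a median of 0.56. Without AP 16, 4 of these markers lay above without overlap (40%, against 15.6% of all genes then) and the median was 0.80. Without AP 18, 2 did (20%, against 24.2% of all genes then). Leaving out any other single AP liver gave 0, with a median as low as 0.34 without AP 13. Their summed level was 82.1 to 231 TPM in the Nop9-high and 155 to 279 TPM in the Nop9-low livers, and the complement gene C1qa was 12.5 to 36.1 TPM and 33.3 to 61.8 TPM. Neutrophil markers summed to 3.99 to 6.73 and 4.67 to 7.8 TPM in the sets, against 131 to 365 TPM in SAP livers. Sinusoidal endothelial markers had 3 of 11 above without overlap (27.3%, against 10.5% of all genes) and a median of 0.35. In whole liver, fewer cells of a type and less RNA per cell cannot be told apart.

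**Figure D5:**
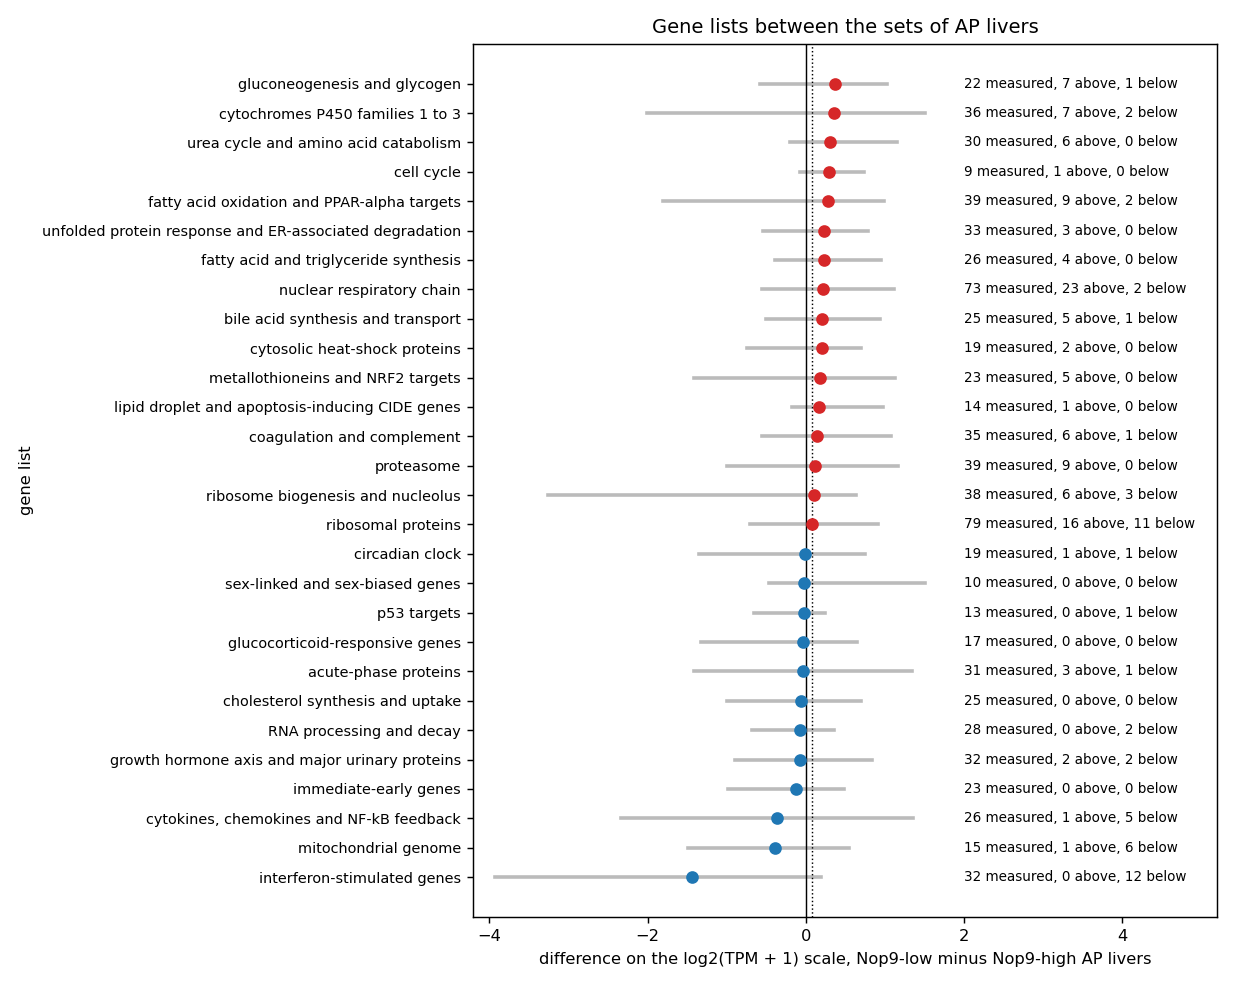
Differences between Nop9-low and Nop9-high AP livers for 28 pathway lists, in log2(TPM + 1); dots are list medians, grey lines run from the lowest to the highest member, the dotted line is the median of all genes, and the text gives the members measured and those without overlap above or below. Interferon-stimulated genes have the lowest median, -1.44, and no other pathway list has a median beyond -0.39 or 0.37.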

How the data were processed

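RNA of 24 livers was extracted with Trizol and sequenced on an Illumina instrument, per the labels' protocols. The authors deposited one table of TPM values for 55536 genes. Its unit was read from the values, since each library summed to between 986423 and 993642 (TPM sums to 1e+06 over a full annotation), and smallest values fell with gene length. The submitters' processing notes name edgeR, with no version. For the aligner, build and annotation nothing is stated in the sources used here, and 99.81% of symbols were found in GENCODE. All value columns matched a library by name, and 0 were left unmapped. At most 31.8% of values were identical between 2 libraries, so no library was taken as a duplicate.

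The log2 scale was applied after adding 1 to each TPM. A gene was kept if its mean reached 1 TPM, which held for 10555 and left out 44981. SAP livers and AP livers were each compared with controls with limma 3.58.1 in R 4.3.3, with a mean-variance trend, over all 24 libraries (21 residual degrees of freedom), with Benjamini-Hochberg adjustment over all genes and a threshold of 0.05. The procedure was tested on simulated data. The labels do not say that libraries came from separate mice, so p-values measure the spread between libraries. TPM keeps no counts, so depth is unknown and no interval for counting error is given. Relations across the 8 controls were tested by exact permutation.

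Genes were named by a rule: the 3 markers, the 15 set-separating genes with the largest difference in each direction at a mean of at least 5 TPM (predicted and clone-named genes and immunoglobulin and T cell receptor segments left out), up to 3 members of each list by size of difference, the set-separating members of a list where 5 or fewer separate the sets, and genes at the thresholds. Other genes were named after their values were seen. The sets, members, lists and rules were chosen with earlier results of these data known. Promoters are RefSeq's, on GRCm38.p6. Shared sequence was measured as the percent of windows of 50 bases of a gene's longest transcript that occur in another gene's transcripts. Alternatives were another pseudocount, filters, scalings, fits and left-out libraries. 1 member of the interferon list is counted but its own values are not reported here.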

Additional observations from a re-analysis of the deposited data

Results flagged for a closer look

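A value is given here where, in a group of 8 livers, the lowest or highest lay apart from its nearest neighbour by more than Dixon's critical share of the group's range, on the log2(TPM + 1) scale. Chance alone gives about 1 such value in 20 groups, for quantities not chosen by their values. Many of the genes examined here were chosen by the values of the AP livers, so that rate does not hold for them. Of 186 pairs of a gene or library measure and a group, 23 (12.4%) met this, and 18 of them were in AP livers, in each case with AP 18 the lowest. These 18 share 1 library and are not independent.

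Signalling and transcription factors of the interferon response were low in AP 18. Stat2 was 10.2 TPM there and 18.1 to 24.4 TPM in the other AP livers. Irf1 was 5.68 against 12 to 18.9 TPM, and Irf7 was 8.44 against 303 to 478 TPM. Antiviral effectors were low in it too. Mx2 was 0.62 against 6.98 to 31.4 TPM, Oasl2 1.13 against 9.64 to 37.1 TPM, Ifi44 0.53 against 7.05 to 17.6 TPM, and Zbp1, a sensor of left-handed nucleic acid that can trigger necroptosis, 4.37 against 67.4 to 159 TPM. Isg15 was 27.5 against 700 to 3320 TPM, and its protease Usp18 was 1.74 against 25.9 to 132 TPM. Xaf1 was 7.08 against 63.4 to 178 TPM, Rtp4 3.65 against 29.7 to 74.5 TPM, Ifi27l2a 26.5 against 78.4 to 194 TPM and Bst2 129 against 567 to 1010 TPM. Of the GTPases, Gbp3 was 0.67 against 9.8 to 30.8 TPM, Irgm1 10.6 against 36.3 to 105 TPM and Igtp 17.4 against 87.7 to 300 TPM. Of antigen processing, Tap1 was 2.41 against 10.1 to 23.4 TPM and the immunoproteasome subunit Psmb8 37.4 against 133 to 283 TPM.

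The other 5 were spread over 5 livers. In controls, Ugt1a1 was 35.4 TPM in Con 6 and 13.5 to 21.2 TPM in the others, Ces2e was 10.4 TPM in Con 1 and 35.3 to 82.7 TPM in the others, and Depp1 was 6.92 TPM in Con 8 and 75.5 to 196 TPM in the others. In SAP livers, Eno1b was 40.9 TPM in SAP 27 and 55.4 to 71.1 TPM in the others, and Irgm2 was 20.9 TPM in SAP 29 and 8.65 to 12.9 TPM in the others.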

How the results depend on the processing

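No paired analysis was possible because the groups share no replicate numbers. Differences of named genes between the AP sets changed sign in 15 of 1546 values recomputed, in 7 of 141 genes, none set-separating (among them Ighm, S100a9, mt-Atp6, Krt19, Hbb-bt and Pf4). Of these mt-Atp6 went from -1.07 to 0.02 without AP 12 and Hbb-bt from 0.59 to -0.12 without AP 18. The median SAP difference over all genes was 0.21 as deposited, 0.03 after quantile normalization and -0.06 after centring, with calls of 4264 higher and 3926 lower, and 3888 and 4300. Against controls, genes higher in AP livers numbered 747 after centring, 194 when rescaled without the 50 most abundant genes and 160 with no filter. Genes lower in AP livers numbered 265 after quantile normalization, 259 after centring, 215 rescaled, 62 with no filter and 79 at a mean of at least 5 TPM, where SAP calls were 2490 higher and 1973 lower, with fewer genes tested. Set-separating genes numbered 136 lower when rescaled, of which 16 were higher and 72 lower in SAP livers. With a pseudocount of 0.1 they numbered 111 higher (72 higher and 16 lower in SAP livers) and 134 lower (18 higher in SAP livers). With no limit on size they numbered 1109 higher (599 higher and 240 lower in SAP livers) and 460 lower (99 higher and 255 lower). Of the higher genes, 22 were higher in SAP livers after quantile normalization, against 38 of 60 as deposited. At 5 TPM 4 were lower, against 9 of 60. The numbers of higher genes at these 2 settings are not given, so no share can be set beside that of all genes. After centring, the SAP differences of Cyp2c29 and Usp18 were -0.01 and -0.13, neither past the threshold. The cause of these shifts was not tested.

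Leaving out each library in turn gave 58 to 106 set-separating genes higher and 77 to 139 lower. Those higher in both Nop9-low and SAP livers ranged from 36 to 73 and higher then lower from 7 to 17 (17 without AP 12). Those lower in both ranged from 42 to 60, and lower then higher from 5 without AP 18 to 23 without AP 16, with 20 without AP 19. AP calls ranged from 135 to 715 higher and 45 to 146 lower, and SAP calls from 4497 to 4810 and 3020 to 3233. AP calls of higher genes were 136, 158, 273 and 178 without AP 15, 17, 18 and 19, and 160 and 155 without Con 1 and Con 10. Calls of lower genes were 45, 53, 67 and 59 without AP 15, 17, 18 and 19, and 50, 45 and 71 without Con 1, 7 and 10. SAP differences ranged from -0.04 to 0.35 for Usp18 and -0.35 to 0.16 for Cmpk2, none past the threshold. Depp1 passed it without Con 8 (-1.5, limma adjusted p = 0.00469).

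In the relations across controls, leaving out the 2 farthest controls gave r = 0.83 and rho = 0.77 for the mitochondrial share and Nop9, and rho = -0.77 for that share and Psmd13, which missed the threshold. Rescaling without mitochondrial transcripts, chosen after seeing the data, brought Fyb and Psmd13 (r = -0.73, rho = -0.81) and the mitochondrial share and Fyb (r = 0.76) past it. Leaving out each control gave r of -0.95 to -0.91 and rho of -1 to -0.89 for Nop9 and Psmd13, r of 0.87 to 0.96 and rho of 0.86 to 0.96 for the mitochondrial share and Nop9, r of -0.93 to -0.83 and rho of -0.86 to -0.75 for that share and Psmd13, and r of -0.78 to -0.64 and rho of -0.86 to -0.64 for Fyb and Psmd13. Calls by rho were lost without Con 3 or 6 for Nop9 and Psmd13, and without Con 1, 3, 6 or 10 for both relations of the mitochondrial share, and Fyb and Psmd13 passed without Con 8 or 9.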

Other observations

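Within SAP livers the interferon-stimulated genes lay at 2 levels. The median log2(TPM + 1) over the 32 measured members was 5.11 to 5.47 in SAP 21, 22, 24 and 25 and 3.15 to 3.91 in SAP 26, 27, 28 and 29, and in controls it ranged from 3.35 to 5.74. Cxcl10 was 66.6, 73.5, 59.3 and 50.1 TPM in the first 4 of these livers and 5.64, 2.88, 11.95 and 6.63 TPM in the others, and the labels give no reason for this. This split was noticed in the values, so no test is given. Nop9 was 4.99, 5.81, 4.29 and 6.54 TPM in SAP 21, 22, 24 and 25. In SAP 26, 27, 28 and 29 it was 7.55, 5.78, 7.2 and 7.53 TPM, so the ranges overlapped. Those of Fyb overlapped too, at 0.2 to 0.86 and 0.62 to 0.95 TPM. Psmd13 was 22.3 to 32.4 TPM in SAP 21, 22, 24 and 25 and 33.2 to 52.2 TPM in the others, without overlap. Whether the markers go with this split was not tested.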
